A study of Mus musculus with 26 samples.

Results

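Stroma beneath invasive tongue tumors was set against stroma beneath dysplasia, across all genes, in 7 of the 26 laser-dissected libraries of the series. The 3 libraries labelled tumor stroma were compared with the 4 labelled dysplasia stroma, as chosen by their labels. All came from paraffin-embedded tongues of males of the inbred CBA strain, in a model in which the DNA-damaging compound 4-NQO drives oral carcinogenesis. Tumor stroma 1, 2 and 3 came from mice aged 32, 32 and 28 weeks, and were sequenced in run 1, 2 and 1. Dysplasia stroma 1, 2, 3 and 4 came from mice aged 32, 16, 28 and 24 weeks, and were sequenced in run 2, 2, 1 and 1. Regions were cut out by laser from sections stained with cresyl violet, following a pathologist's map, and the dissected stroma included the muscle beneath it. The labels call these biological replicas but do not name the animal. Where regions share an animal the p-values are too small, and they then measure a spread that may be technical.

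The stroma of the tongue holds fibroblasts and their matrix, vessels, nerves, immune cells and bundles of skeletal muscle. Minor salivary glands also lie within the tongue, between muscle bundles, and pour mucins, lipases and antibacterial proteins into the mouth through ducts that cross the stroma. At an invading tumor front, squamous cells and inflammatory cells enter this tissue and muscle fibers can be damaged. Damaged skeletal muscle is rebuilt from satellite cells, which pass through stages marked by the factors MyoD and myogenin before they fuse into new fibers.

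Promoters of a gland gene and of a pair of neighbouring inflammatory genes are shown because these genes had the largest differences in their groups. Each run holds 250 bases before to 50 bases after a gene's start, 5′ to 3′ on the gene's strand, from RefSeq on GRCm38.p6, and 13 of the 21 genes that passed the test had such an entry. Capitals mark 3 motifs searched on both strands: TATAAA, the TATA box; CAGCTG, an E-box bound by MyoD-type factors; and TGANTCA, the site of AP-1.
Lipf, chr19:33960998-33961297, plus strand: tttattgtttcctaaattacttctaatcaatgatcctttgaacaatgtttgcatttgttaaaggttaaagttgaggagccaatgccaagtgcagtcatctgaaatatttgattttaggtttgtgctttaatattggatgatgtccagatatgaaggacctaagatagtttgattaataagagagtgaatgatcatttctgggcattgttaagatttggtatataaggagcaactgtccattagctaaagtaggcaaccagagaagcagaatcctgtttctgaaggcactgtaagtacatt
S100a8, chr3:90668821-90669120, plus strand: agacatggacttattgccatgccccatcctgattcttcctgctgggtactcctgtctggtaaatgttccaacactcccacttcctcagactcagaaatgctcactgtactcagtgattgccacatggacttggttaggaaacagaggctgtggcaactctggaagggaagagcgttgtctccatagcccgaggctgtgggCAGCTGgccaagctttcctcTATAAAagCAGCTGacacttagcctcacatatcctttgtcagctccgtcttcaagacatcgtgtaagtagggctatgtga
S100a9, chr3:90695672-90695971, minus strand: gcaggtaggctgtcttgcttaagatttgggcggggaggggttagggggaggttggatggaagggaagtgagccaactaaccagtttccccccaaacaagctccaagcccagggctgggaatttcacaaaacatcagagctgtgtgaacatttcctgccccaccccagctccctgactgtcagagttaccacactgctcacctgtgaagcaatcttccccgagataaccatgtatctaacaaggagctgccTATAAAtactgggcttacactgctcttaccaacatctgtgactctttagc
Of 32851 such promoters, 13.6% held TATAAA, 16.3% CAGCTG and 7.81% TGANTCA, and the motifs did not overlap in these windows. Of the 13 promoters of genes that passed, 5 held TATAAA, 2 CAGCTG and 0 TGANTCA. Lipf held none of these letters, S100a8 held TATAAA and CAGCTG, and S100a9 held TATAAA. A match is a description of letters and does not show that a factor binds.

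The libraries were uneven. All deposited rows, those of repeated identifiers included, summed to between 179645 TPM in tumor stroma 1 and 688587 TPM in dysplasia stroma 3. TPM is a relative abundance per transcript length. The depth of the libraries in reads is unknown, since TPM keeps no record of it. Dysplasia stroma 2 stood apart, with 53.4% of its TPM in 3 genes (Lars2, March6 and D17H6S53E), 4637 genes listed at 0, and the mitochondrial genes mt-Co2 and mt-Atp6 at 0.03 and 1.68 on the log2 scale, against 8.60 or more and 9.45 or more in the other 6. Genes listed at 0 numbered 129, 2634 and 102 in tumor stroma 1, 2 and 3, and 1614, 3292 and 52 in dysplasia stroma 1, 3 and 4. Hyperplasia stroma 1, which entered the fit as 1 of 13 stroma libraries that share an estimate of the spread, had 86% of its TPM in the same 3 genes and 9382 genes at 0. Spearman correlations across genes ran from 0.83 to 0.89 within tumor stroma, from 0.65 to 0.88 within dysplasia stroma, and from 0.66 to 0.91 between them, so the groups did not separate as a whole.

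Of 14883 genes tested, 21 were higher in tumor stroma at an adjusted p under 0.05 (limma on log2(TPM + 1), Benjamini-Hochberg over all genes), which is 0.141% of the genes. None was lower by limma, where 62 genes had an unadjusted p under 0.05 in the negative direction (0.417%) and 354 in the positive (2.38%). The median difference over all genes was 0.02, with 51.2% of differences positive and 48.8% negative. Of the 21 genes, 9 were on the lists of salivary secretion or salivary gland epithelium. A further 5 correlated at 0.8 or more over the 13 stroma libraries with the gland score, the mean level of the tested secretion genes, and the remaining 7 did neither, although their correlations were 0.60 to 0.80. All 21 had positive differences within each run, yet the median over all genes was itself -0.51 within run 1 and 0.91 within run 2. Run 1 alone gave 10 calls, and run 2, which held tumor stroma 2 as its single tumor library, gave 0. Without tumor stroma 2 the count was 1, without tumor stroma 1 it was 12 and without dysplasia stroma 3 it was 9. Without hyperplasia stroma 1 it was 6, without dysplasia stroma 2 it was 18, and with tumor stroma 3 as the only tumor library it was 0. Median centring, rescaling without the 3 dominant genes, a pseudocount of 0.1, no trend with the mean level and the gland score as a covariate gave 0 calls each. The differences themselves moved little under the first of these, where Lipf had 7.48 (7.45 in the fit reported) and S100a9 4.96 (4.94), and under the second, where they had 7.36 and 5.03. With the gland score as a covariate Lipf had 0.48 and S100a9 3.92. Lipf is part of that score, so its difference had to shrink, and S100a9 is not part of it.

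**Figure D1:**
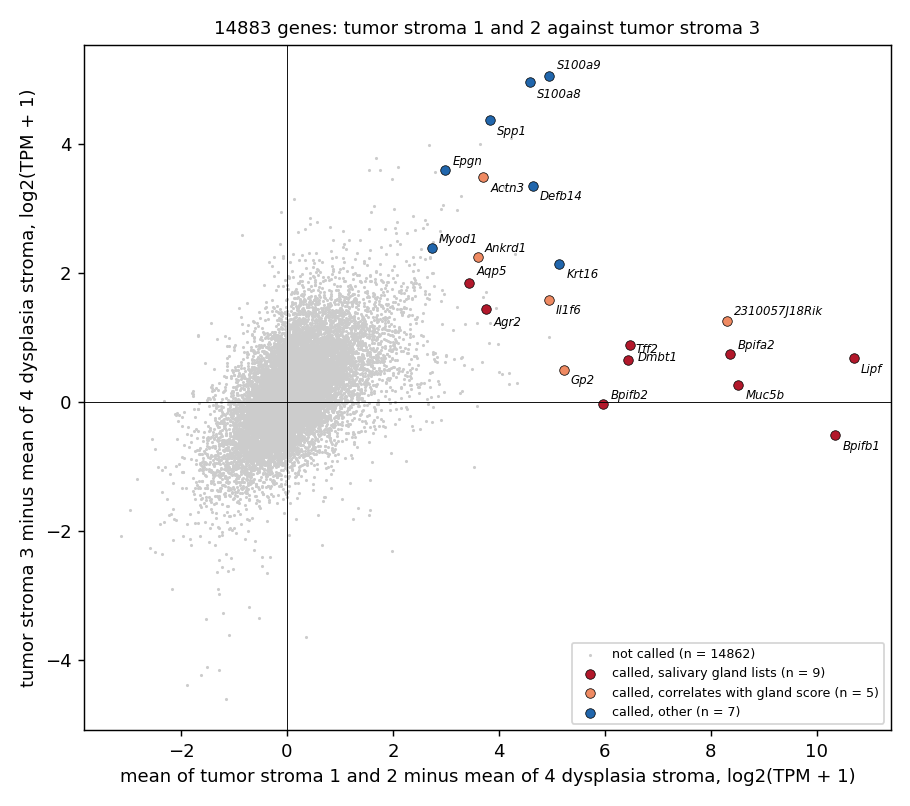
For each gene tested, the x axis gives the mean of tumor stroma 1 and 2 and the y axis tumor stroma 3, each minus the mean of the 4 dysplasia stroma libraries, on the log2(TPM + 1) scale. Most red gland genes lie far to the right and near 0 on the y axis, while blue genes such as S100a8 and Spp1 are high on both axes.

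Salivary gland genes had the largest differences. They were high in tumor stroma 1 and 2, while tumor stroma 3 lay near the dysplasia libraries. Lipf, the gastric-type lipase that serous glands of the tongue secrete in rodents (chromosome 19, 33961187 to 33976810), stood at 10.94, 10.80 and 0.85 in tumor stroma 1, 2 and 3, against 0, 0, 0 and 0.69 in dysplasia stroma 1 to 4. In TPM that was 1968, 1778 and 0.808 in tumor stroma, against 0, 0, 0 and 0.613 in dysplasia stroma. The fitted difference between the 3 and 4 libraries was 7.45 ± 1.06 (SE from the fit of 13 stroma libraries, limma adjusted p = 1.03e-05). Within-run differences were 5.55 and 10.80, and the SD among the 3 tumor libraries was 5.78. That fit draws each gene's spread toward that of genes at a similar level (8 residual and 71.8 prior degrees of freedom). The SE and p-value therefore do not measure the spread of Lipf between libraries, and the same holds for the other genes reported. With each gene's own spread, a setting chosen after seeing the data, 0 of the 21 genes passed. Groups did not overlap for Lipf, but the lowest tumor library exceeded the highest dysplasia library by little.

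Bpifb1, a secreted antibacterial protein of the BPI fold family, stood at 11.27, 11.30 and 0.42 in tumor stroma, against 0.50, 2.57, 0 and 0.68 in dysplasia stroma (6.93 ± 1.14, limma adjusted p = 0.000135). Here tumor stroma 3 was below 3 of 4 dysplasia libraries. Muc5b, the gel-forming mucin of mucous acini, stood at 8.81, 8.62 and 0.47 in tumor stroma, against 0.31, 0.14, 0 and 0.36 in dysplasia stroma (5.88 ± 0.93, limma adjusted p = 6.43e-05). The other secretion genes that rose were Bpifa2, the parotid secretory protein (5.77), Dmbt1, a mucosal scavenger protein (4.65), Tff2, a trefoil peptide (4.54), Bpifb2 (4.04) and Agr2, a chaperone of mucin folding (3.01), with adjusted p from 0.000526 to 0.0136 by limma. Bpifb1, Bpifa2 and Bpifb2 lie together on chromosome 2. Aqp5, the water channel of acinar cells, was the single gene of the gland epithelium list that passed. It stood at 3.68, 4.10 and 2.30 in tumor stroma, against 0, 0, 0 and 1.78 in dysplasia stroma (2.88 ± 0.66, limma adjusted p = 0.0299). Every tumor library was above every dysplasia library for Aqp5, with tumor stroma 3 closest to dysplasia stroma 4. Of the 7 fits that left out a library, Aqp5 passed in 2, those without tumor stroma 3 or dysplasia stroma 4, with differences from 2.27 to 3.44 over the 7. Tff2, Bpifb2 and Agr2 passed in 4 of 7, and ended without tumor stroma 1, tumor stroma 2 or dysplasia stroma 3. Bpifa2 passed in 5, Bpifb1 and Dmbt1 in 6 and Lipf in 7 of 7. Muc5b passed in the 5 fits in which it was tested and was below the filter without tumor stroma 1 or 2.

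Of 36 genes listed for salivary secretion, 17 were in the rows used, 14 passed the filter on low values, 13 had positive differences and 8 rose, with a median of 3.53 against 0.02 for all genes. Of the 22 gland epithelium genes, 19 were tested, 16 were positive and 1 rose, with a median of 0.54. Members that passed the filter through tumor stroma alone had to differ, so these counts describe the lists and do not test them. Summed over the 14 secretion genes, the level was 6040, 5889 and 29.8 TPM in tumor stroma 1, 2 and 3, against 25.0, 9.92, 40.3 and 20.5 TPM in dysplasia stroma 1 to 4. Of the TPM summed over all deposited rows, that made 3.36%, 0.987% and 0.0119% in tumor stroma 1, 2 and 3. In dysplasia stroma it was at most 0.0103%. The totals were 179645 in tumor stroma 1 and 596514 in tumor stroma 2, so these percentages differ more than the levels in TPM. Dysplasia stroma 2 and 3 had 10 and 11 of the 14 genes at 0, among them Lipf and Dmbt1, while dysplasia stroma 4 had none at 0. With tumor stroma 3 as the only tumor library the median of the secretion list was -0.05, and that of the gland epithelium list was -0.00.

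The same genes were high in a single library outside the stroma, tumor epithelium 1, which shares its replicate number, age and run with tumor stroma 1. There the secretion genes summed to 3328 TPM, with Lipf at 10.15, Bpifb1 at 10.23 and Muc5b at 8.56. In tumor epithelium 2 and 3 they summed to 17.7 and 19.1 TPM, with Lipf at 0.07 and 0.40. Tumor epithelium 2 has the replicate number, age and run of tumor stroma 2, in which the secretion genes were high. Of the other secretory cell lists, plasma and B cell genes had a median of -0.75 (2 of 8 positive, 0 called), and general secretory pathway genes had a median of 0.24 (11 of 17 positive, 0 called). In bulk tissue, more cells of a type and more RNA per cell cannot be told apart.

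**Figure D2:**
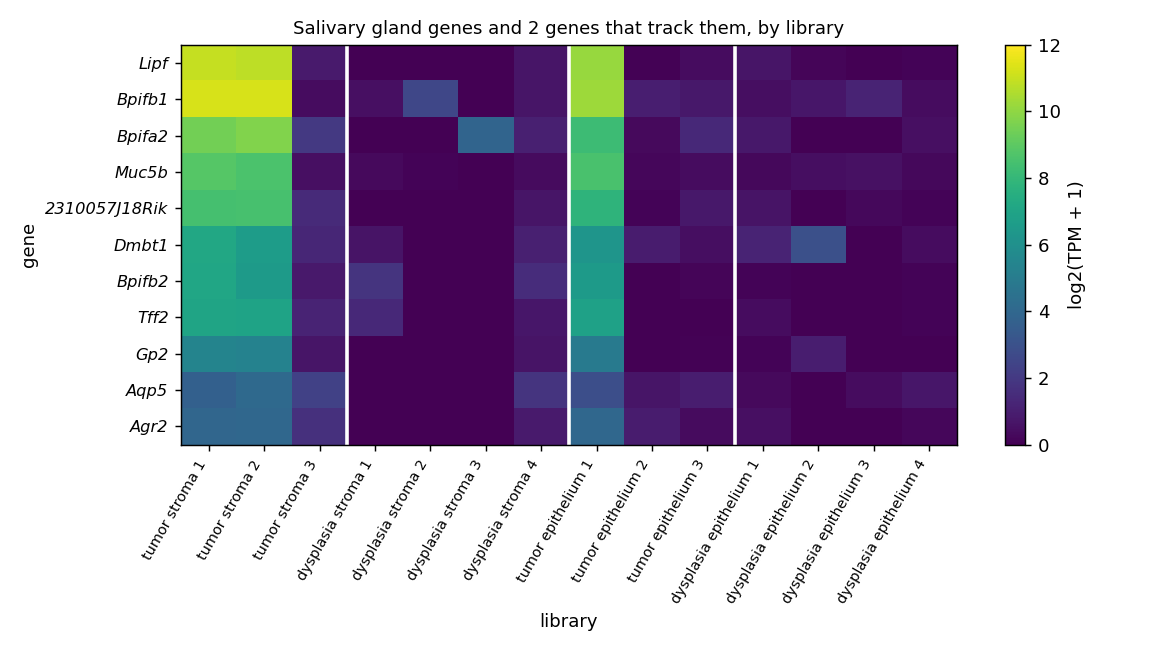
Colour gives the log2(TPM + 1) level of 9 gland list genes and of 2310057J18Rik and Gp2 in tumor stroma, dysplasia stroma, tumor epithelium and dysplasia epithelium, 1 column per library. Tumor stroma 1 and 2 and tumor epithelium 1 are bright, with Lipf at 10.94, 10.80 and 10.15, and no other column is.

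Of 29 tested genes outside the gland lists that correlated with the gland score at 0.8 or more, 5 rose, against 0.141% of all genes tested. The score was highest in tumor stroma 1 and 2, and the correlation used those libraries, so genes picked by it lean toward a rise. The count of 5 therefore describes the picked genes and does not test them. 2310057J18Rik stood at 8.45, 8.50 and 1.44 in tumor stroma, against 0, 0, 0 and 0.70 in dysplasia stroma (5.95 ± 0.94, limma adjusted p = 6.43e-05). Gp2, a membrane glycoprotein of secretory granules, stood at 5.42, 5.34 and 0.66 in tumor stroma, against 0, 0, 0 and 0.63 in dysplasia stroma (3.69 ± 0.73, limma adjusted p = 0.00309). Both had the tumor stroma 1 and 2 pattern of Lipf, with correlations to the score of 0.98 and 0.99. 2310057J18Rik passed in 6 and Gp2 in 4 of the 7 fits that left out a library, and Gp2 ended without tumor stroma 1, tumor stroma 2 or dysplasia stroma 3. Lman1l, Pax1 and B4galnt2, whose correlations were 0.90 to 0.95, had differences of 1.54, 1.74 and 1.35 and did not pass (adjusted p from 0.766 to 1 by limma). The other 3 that rose, Il1f6, Actn3 and Ankrd1, had lower correlations (0.88, 0.82 and 0.84) and were above every dysplasia library in tumor stroma 3 as well. They are described with their tissue below. In all, 17 of the 21 genes that rose were higher in tumor stroma 3 than in every dysplasia library, and Bpifb1, Bpifa2, Tff2 and Bpifb2 were not. Over all genes tested, 2142 of 14883 were. The 21 were called with tumor stroma 3 among the tumor libraries, so this count describes them and is no separate test.

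Among genes apart from the gland, the calprotectin pair S100a8 and S100a9 had the largest differences and was high in all 3 tumor libraries. Both encode calcium-binding proteins that join into a complex abundant in neutrophils and also made by stressed keratinocytes. They lie 22596 bases apart on chromosome 3 (90668978 to 90670035 and 90692632 to 90695721), with the promoters shown above. S100a8 stood at 6.32, 8.06 and 7.57 in tumor stroma, against 3.87, 0.97, 1.95 and 3.63 in dysplasia stroma (4.79 ± 0.90, limma adjusted p = 0.00181). In TPM this was 79, 266 and 189 in tumor stroma, against 13.6, 0.959, 2.85 and 11.4 in dysplasia stroma, with no overlap. S100a9 stood at 6.21, 8.97 and 7.70 in tumor stroma, against 3.02, 0.80, 3.29 and 3.43 in dysplasia stroma (4.94 ± 0.91, limma adjusted p = 0.00136). In normal stroma S100a8 stood at 0, 0 and 0.51, below every dysplasia library. S100a9 stood at 0, 1.21 and 1.51 there, with normal stroma 2 and 3 above dysplasia stroma 2. Within run 1 and run 2 the differences were 4.16 and 5.64 for S100a8 and 3.59 and 7.06 for S100a9. With tumor stroma 3 as the only tumor library they were 5.09 and 4.59 and no longer passed. Without tumor stroma 2 the pair had 4.47 and 3.84 (adjusted p = 0.162 and 0.504), and both passed when any other of the 7 libraries was left out.

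The pair is also abundant in epithelium. S100a8 stood at 9.36, 6.53 and 9.83 in tumor epithelium 1 to 3, against 10.38, 0.49, 12.19 and 9.0 in dysplasia epithelium 1 to 4. Other neutrophil genes were tested beside it. Csf3r, the receptor of the granulocyte growth factor, stood at 3.41, 5.88 and 5.42 in tumor stroma, against 3.09, 0.23, 1.35 and 2.76 in dysplasia stroma, with no overlap (3.02 ± 0.87), and did not pass (limma adjusted p = 0.315). Csf3r was lower in each tumor epithelium library (2.01 to 3.45) than in the tumor stroma library of the same number. Ltf, lactoferrin, which glands also secrete, had 2.30, Cxcr2 0.56, and the granule enzymes Mpo and Elane -0.42 and -0.19, with 0 of these 4 called. The neutrophil list had a median of 1.61, with 6 of 8 tested members positive and 2 called, both of them the calprotectin pair.

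Genes of M1 macrophages and of inflammation had a median of 1.32, with 14 of 15 tested members positive, 5 in groups that did not overlap, and 0 called. For all genes, 2.83% had higher tumor libraries without overlap. The counts of this list leave out Il1f6, which the list holds as Il36a and which was not matched. Il1f6 was called, without overlap (3.87 ± 0.80, limma adjusted p = 0.00696). Il1b, the interleukin-1 beta gene, stood at 3.92, 6.17 and 6.35 in tumor stroma, against 4.43, 0, 2.03 and 3.00 in dysplasia stroma (3.04 ± 0.92, limma adjusted p = 0.441), so dysplasia stroma 1 lay above tumor stroma 1. Il6 stood at 1.42, 2.44 and 3.31 in tumor stroma, against 0.28, 0, 0 and 1.14 in dysplasia stroma (1.99 ± 0.61, adjusted p = 0.448 by limma). Cxcl5, which draws neutrophils, stood at 3.03, 4.86 and 6.06 in tumor stroma, against 2.28, 2.39, 2.64 and 1.75 in dysplasia stroma (2.46 ± 0.89, adjusted p = 0.852 by limma). For Il6 and Cxcl5 the groups did not overlap, and tumor stroma 3 had the highest level of all 3 genes. Proteases of the matrix included Mmp9, a gelatinase carried by neutrophils and macrophages, at 3.19, 2.82 and 4.55 in tumor stroma, against 1.72, 0, 0 and 1.88 in dysplasia stroma (2.47 ± 0.79), and Mmp13, a collagenase, with a difference of 1.15. Neither passed (adjusted p = 0.521 and 1 by limma).

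**Figure D3:**
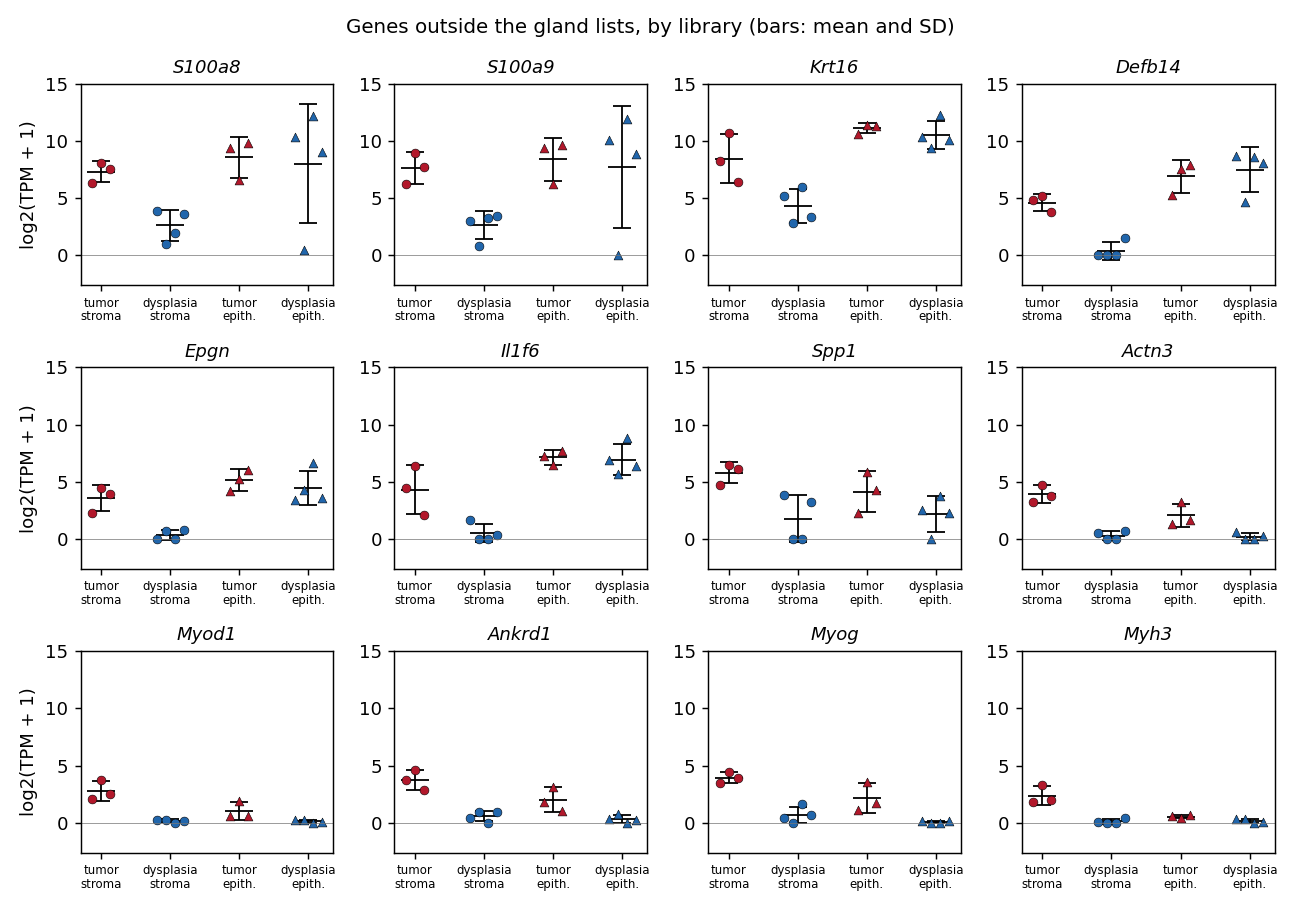
Each panel gives log2(TPM + 1) of a gene per library in tumor stroma, dysplasia stroma, tumor epithelium and dysplasia epithelium, with a bar at the mean and whiskers of 1 SD. In every panel the 3 tumor stroma points lie above the 4 dysplasia stroma points. For S100a8, S100a9, Krt16, Defb14, Epgn and Il1f6 the epithelium reaches as high or higher.

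Krt16, a member of the stress keratin list, rose in tumor stroma, as did Defb14, Epgn and Il1f6. Defb14 and Epgn are on none of the lists. Il1f6 is on the M1 and inflammatory list under its other name, Il36a, and was not matched there. Krt16, a keratin induced in wounded and proliferating epithelium, stood at 8.20, 10.66 and 6.44 in tumor stroma, against 5.15, 2.80, 5.93 and 3.30 in dysplasia stroma (4.21 ± 0.96, limma adjusted p = 0.0299). Defb14, an antimicrobial beta-defensin, stood at 4.85, 5.19 and 3.74 in tumor stroma, against 0, 0, 0 and 1.53 in dysplasia stroma (4.12 ± 0.80, limma adjusted p = 0.00259). Epgn, a ligand of the EGF receptor, stood at 2.28, 4.43 and 3.96 in tumor stroma, against 0, 0.69, 0 and 0.76 in dysplasia stroma (3.17 ± 0.75, limma adjusted p = 0.0498). Il1f6, the gene of interleukin-36 alpha, stood at 4.48, 6.42 and 2.09 in tumor stroma, against 1.65, 0, 0 and 0.38 in dysplasia stroma (3.87 ± 0.80, limma adjusted p = 0.00696). None of these 4 overlapped between the groups, but Defb14 stood at 0, 3.88 and 3.55 in normal stroma, as high as in tumor stroma 3. Leaving out tumor stroma 2 ended all 4 calls, with differences of 2.81 for Krt16, 3.45 for Defb14, 2.47 for Epgn and 2.49 for Il1f6 (adjusted p from 0.441 to 0.874). Krt16 passed in 3, Defb14 in 5, Epgn in 2 and Il1f6 in 5 of the 7 fits that left out a library.

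All 6 tested stress keratin genes had positive differences (median 3.16, 1 called). Gjb2, a gap junction protein, stood at 5.62, 7.69 and 4.65 in tumor stroma, against 3.76, 1.99, 2.06 and 1.6 in dysplasia stroma (3.72 ± 0.91, limma adjusted p = 0.0621). Krt17, a partner of Krt16, stood at 7.93, 10.22 and 8.30 in tumor stroma, against 2.74, 6.99, 5.64 and 4.52 in dysplasia stroma (3.86 ± 0.96, limma adjusted p = 0.0747). Both were without overlap and fell short of the threshold, and Gjb6 (2.59) overlapped. Of 21 tested genes of differentiated keratinocytes, 20 were positive, with a median of 1.76 and 0 called, and 0 were without overlap. Rptn, a cornified envelope protein, stood at 5.81, 8.05 and 3.81 in tumor stroma, against 7.14, 2.03, 0 and 1.21 in dysplasia stroma (3.55 ± 1.05, adjusted p = 0.354 by limma), with dysplasia stroma 1 among the tumor libraries. Sprr3 (3.07) and Cnfn (2.91) had the same order of libraries at the top, tumor stroma 2 and then dysplasia stroma 1 or tumor stroma 1. Basal keratinocyte genes had a median of 0.39 (9 of 13 positive, 0 called).

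By the mean of log2 levels, the stress keratin list separated the groups and the differentiated keratinocyte list did not. Summed in TPM the stress keratins overlapped, with 591.6 in tumor stroma 3 against 627 in dysplasia stroma 3. The mean of the differentiated keratinocyte list was 4.92, 6.89 and 3.50 in tumor stroma, against 4.85, 2.80, 4.33 and 2.08 in dysplasia stroma, and 7.50 to 8.58 in tumor epithelium. The mean of the stress keratin list was 6.25, 8.49 and 5.65 in tumor stroma, against 3.68, 4.68, 4.91 and 3.08 in dysplasia stroma, and 8.34 to 9.20 in tumor epithelium. Normal stroma had 4.46 to 6.01 for the differentiated list and 3.96 to 4.91 for the stress list. No member of either list was at 0 in tumor stroma or in dysplasia stroma 1, 2 and 4. Dysplasia stroma 3 had 3 differentiated keratinocyte genes and 1 stress keratin gene at 0. How much of the rise of Krt16, Defb14, Epgn, Il1f6 and the calprotectin pair lies in epithelial cells within the dissected stroma was not tested. With tumor stroma 3 as the only tumor library, the differentiated keratinocyte median was 0.03 and the stress keratin median was 1.44.

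Spp1, osteopontin, a secreted phosphoprotein of macrophages and matrix, rose. It stood at 4.75, 6.46 and 6.16 in tumor stroma, against 3.87, 0, 0 and 3.26 in dysplasia stroma, with no overlap (3.96 ± 0.91, limma adjusted p = 0.032). The listing at 0 in dysplasia stroma 2 and 3 is part of that difference. Without dysplasia stroma 3 it was 3.17 (adjusted p = 0.902), without dysplasia stroma 2 it was 3.41 (0.133), without tumor stroma 2 it was 3.36 (0.874) and without tumor stroma 3 it was 3.82 (0.0677). Spp1 was the only called gene of the 26 matrix and activated fibroblast genes, whose median was 0.51 with 20 positive. Col12a1, a fibril-associated collagen, stood at 5.77, 7.84 and 7.79 in tumor stroma, against 5.0, 4.38, 4.47 and 5.32 in dysplasia stroma (2.31 ± 0.90, limma adjusted p = 1). Postn, periostin, had 6.86, 9.20 and 8.13 in tumor stroma, against 6.36, 4.50, 6.49 and 6.71 in dysplasia stroma (2.04 ± 0.92), and Col11a1 had a difference of 1.92 ± 0.88. These 3 were without overlap and did not pass, and the fibrillar collagens Col1a1, Col1a2 and Col3a1 had overlapping groups and differences of 0.71, 0.02 and -0.47.

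Among genes of the muscle lists, Myod1 and Actn3 rose in tumor stroma. Ankrd1, which is on none of the lists, rose too and is described with them. Myod1, which commits satellite cells to the muscle fate (chromosome 7, 46376474 to 46379099), stood at 2.09, 3.74 and 2.56 in tumor stroma, against 0.24, 0.30, 0 and 0.19 in dysplasia stroma (2.64 ± 0.62, limma adjusted p = 0.0447). Every tumor library was far above every dysplasia library, whose SD was 0.13. The call ended when any of the 7 libraries was left out, with differences from 2.01 to 2.97 and adjusted p from 0.0745 to 0.874. Myog, myogenin, the factor of fusing myoblasts, stood at 3.49, 4.48 and 3.89 in tumor stroma, against 0.40, 0, 1.68 and 0.68 in dysplasia stroma (3.13 ± 0.76, limma adjusted p = 0.0621). Myh3, the embryonic myosin of newly formed fibers, stood at 1.81, 3.31 and 2.03 in tumor stroma, against 0.10, 0, 0 and 0.47 in dysplasia stroma (2.26 ± 0.57, limma adjusted p = 0.0837). Mymk, the fusion protein myomaker, stood at 1.93, 3.11 and 3.17 in tumor stroma, against 0, 1.44, 0 and 0.45 in dysplasia stroma (2.29 ± 0.62, limma adjusted p = 0.204). None of these overlapped between groups. All 12 tested members of the muscle regeneration list were positive (median 1.40), 7 were without overlap and 1 was called. Over all genes tested, 51.2% were positive, 2.83% were higher without overlap and 0.141% were called higher. Pax7 and Myf5, which mark resting and early satellite cells, had 0.36 and 0.51.

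Ankrd1, a stress-responsive titin-binding protein of muscle, stood at 3.77, 4.59 and 2.83 in tumor stroma, against 0.44, 0.99, 0 and 0.91 in dysplasia stroma (3.14 ± 0.74, limma adjusted p = 0.0447). Actn3, the alpha-actinin of fast fibers (chromosome 19, 4861216 to 4877909), stood at 3.27, 4.76 and 3.80 in tumor stroma, against 0.55, 0, 0 and 0.69 in dysplasia stroma (3.62 ± 0.71, limma adjusted p = 0.00295). Both were without overlap. Actn3 passed in 5 of the 7 fits that left out a library and had 2.98 (adjusted p = 0.504) without tumor stroma 2 and 3.47 (0.0788) without dysplasia stroma 3. Ankrd1 passed in 2 of 7, those without tumor stroma 3 or dysplasia stroma 2. Of the 32 skeletal muscle genes, 30 were positive, with a median of 1.55, and Actn3 alone was called. The slow-fiber troponins Tnni1 (2.88 ± 0.81) and Tnnc1 (2.71 ± 0.88) and Des, desmin (2.42 ± 0.92), were without overlap and did not pass (limma adjusted p = 0.271, 0.54 and 1).

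Skeletal muscle genes as a whole differed between the libraries as well. The mean of the skeletal muscle list was 5.23, 6.07 and 4.91 in tumor stroma, against 4.00, 3.51, 5.21 and 2.53 in dysplasia stroma, and 5.02 to 6.68 in normal stroma. Dysplasia stroma 3, which had more of this than tumor stroma 3, had Myod1, Myh3 and Actn3 at 0 and Myog at 1.68, the highest of the 4 dysplasia libraries, and listed 3292 genes at 0 in all. The part of muscle content in these differences was not tested. Normal stroma 1 to 3 had Myod1 at 0.45, 1.42 and 1.18 and Myh3 at 0, 0.29 and 0.45, below each tumor stroma library. The mean of the muscle regeneration list was 2.01, 2.79 and 2.41 in tumor stroma, against 0.50, 0.86, 0.81 and 1.02 in dysplasia stroma and 0.98 to 1.54 in normal stroma. With the mean of the skeletal muscle list as a covariate, S100a8 was the single gene that passed (5.10, limma adjusted p = 0.0292), while Myod1 had 2.24, Actn3 3.20 and Ankrd1 2.89 and did not pass (adjusted p = 0.488, 0.235 and 0.481). The median of the muscle regeneration list had the same sign under all 29 alternatives, from 0.93 to 2.84.

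No gene was lower in tumor stroma past the threshold. Those with the smallest p in that direction were Arhgap8 (-2.87 ± 0.82), P2rx1, an ATP-gated channel of platelets and other blood cells (-2.22 ± 0.64), Batf3, the factor of cross-presenting dendritic cells (-2.36 ± 0.77), Cxcl10, an interferon-induced chemokine (-2.06 ± 0.67), Igfbp6 (-2.75 ± 0.92) and Phf24 (-2.49 ± 0.84), with limma adjusted p from 0.305 to 0.636. Batf3 stood at 1.30, 0 and 1.14 in tumor stroma, against 3.68, 2.89, 2.96 and 2.63 in dysplasia stroma. P2rx1 stood at 0.32, 0 and 0.61 in tumor stroma, against 2.91, 2.02, 2.42 and 2.55 in dysplasia stroma. For both the groups did not overlap, and of all genes 0.786% were lower without overlap.

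Interferon response genes had a median of -1.08, with 14 of 16 tested members negative, 3 without overlap and 0 called. Cxcl10 stood at 0.79, 0.23 and 0.99 in tumor stroma, against 1.05, 4.19, 3.27 and 2.09 in dysplasia stroma. Its groups did not overlap, while those of Irf1, an interferon-induced transcription factor (-1.58), overlapped by little. The median of the list was -1.07 within run 1 and -0.62 within run 2, and it was negative under all 29 alternatives. Class I presentation genes had a median of -0.75 (9 of 12 negative, 0 called), with Psmb9, a subunit of the immunoproteasome, at 2.90, 1.98 and 2.16 in tumor stroma, against 2.97, 5.01, 5.67 and 3.45 in dysplasia stroma. Within run 2 the class I median was 0.86, near the 0.91 of all genes there, and within run 1 it was -1.72.

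Resting fibroblast genes had a median of -1.01, with 13 of 15 negative, 1 without overlap and 0 called. Pcolce2, an enhancer of procollagen processing, stood at 1.24, 1.56 and 1.41 in tumor stroma, against 3.10, 5.51, 2.60 and 2.98 in dysplasia stroma (-2.18 ± 0.87, limma adjusted p = 1). Within run 2 the list's median was 0.53 and within run 1 it was -1.90. M2 macrophage genes had a median of -0.54 (8 of 11 negative, 0 called). Ccl22, a chemokine for regulatory T cells, stood at 1.26, 0 and 1.72 in tumor stroma, against 2.10, 3.56, 3.80 and 1.92 in dysplasia stroma (-1.95 ± 0.71, limma adjusted p = 0.858). Its neighbour in function Ccl17 had -1.93, Folr2, a marker of resident macrophages, had -1.68, and Arg1, arginase, had 2.29, with tumor stroma 3 at 1.78 and dysplasia stroma 1 at 4.89. Dendritic cell genes had a median of -0.52 (11 of 14 negative), and the B cell genes Ms4a1 and Cd79b had -1.45 and -1.31.

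The remaining lists had 0 members called. Medians were 0.76 for NRF2 targets, 0.67 for hypoxia and glycolysis, 0.45 for immediate early and heat shock genes, 0.42 for matrix proteases and 0.31 for adipocyte genes. They were 0.24 for oxidative phosphorylation, 0.21 for p53 targets, 0.13 for the TGF-beta pathway, 0.08 for pericytes and smooth muscle and 0.07 for the cell cycle. They were -0.01 for T and NK cells, -0.11 for taste buds, -0.19 for ribosomal proteins, -0.24 for mast cells, -0.24 for macrophages and monocytes and -0.31 for endothelium. The most negative of these were -0.53 for Schwann cells and -0.62 for genes of epithelial-mesenchymal transition, where all 10 tested members were negative. The sign of most of these medians changed under some alternative, and that of Schwann cells did not.

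**Figure D4:**
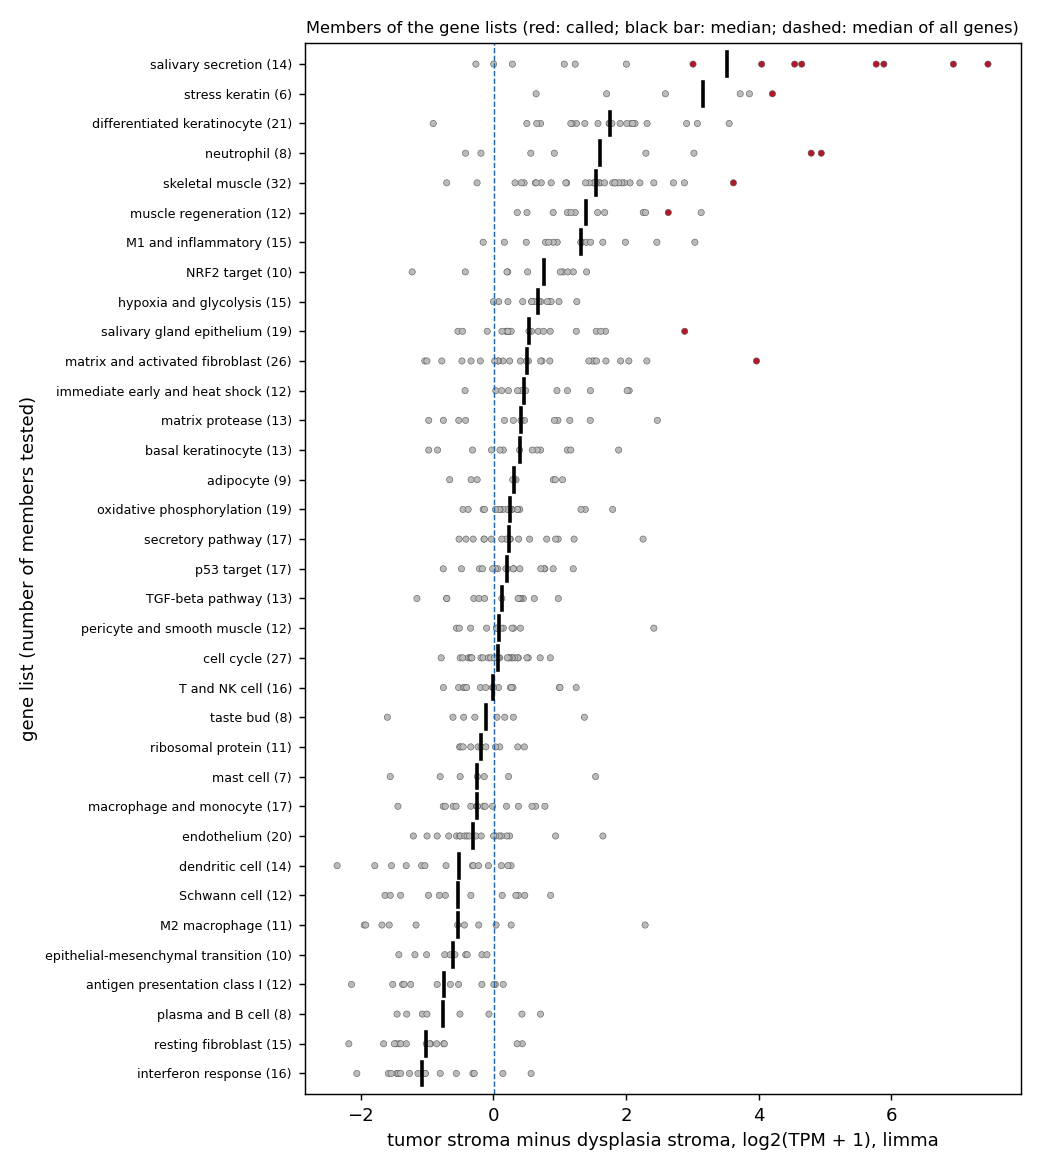
Each row is a gene list, each point a tested member, and the x axis is the fitted difference of tumor stroma minus dysplasia stroma on the log2(TPM + 1) scale. Medians run from 3.53 for salivary secretion to -1.08 for interferon response, and red points mark the members that passed.

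The study also stained T cells, B cells and macrophages with antibodies, and the genes of those markers were read out in stroma. None of the 7 that were tested passed. Cd3e stood at 2.27, 2.44 and 2.61 in tumor stroma, against 1.99, 0, 0.84 and 2.41 in dysplasia stroma (1.00 ± 0.76). Cd4 had 1.25 ± 0.85, Cd8a 0.27 ± 0.80 and Foxp3, the factor of regulatory T cells, -0.45 ± 0.58. Ptprc, whose B cell isoform is B220, had -0.22 ± 0.90. Adgre1, the gene of F4/80, stood at 2.01, 3.45 and 1.78 in tumor stroma, against 4.78, 1.95, 3.71 and 4.60 in dysplasia stroma (-1.44 ± 0.88). Cd163, the M2 marker, stood at 1.95, 2.91 and 1.75 in tumor stroma, against 2.92, 4.79, 4.16 and 2.95 in dysplasia stroma (-1.57 ± 0.88), the single one of the 7 without overlap. Each had a limma adjusted p of 1, and Nos2, the gene of iNOS, was too low to test. With an SE near 0.9, differences of the size seen for Cd163 were not detectable as changes over all genes in these 7 libraries.

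Whether the tumor change differed between stroma and epithelium was tested in a fit of all 26 libraries. Of 15499 genes 0 passed in limma (195 had an unadjusted p under 0.05), which is 0% of the genes in either direction. The smallest p belonged to Defb14, which had a difference of changes of 4.81 ± 1.20 (adjusted p = 1), with 4.21 in stroma and -0.60 in epithelium as plain differences of group means. Derl3, a part of the protein disposal machinery of the endoplasmic reticulum, had 2.66, Myh3 1.87, Gjb2 3.52 and Krt17 4.08. In the negative direction Arhgap8 had -3.43, Pcolce2 -2.95 and Batf3 -2.55. Skeletal muscle genes had a median of 1.76 in tumor against dysplasia epithelium too, and matrix genes 1.17, while stress keratins had 0.00 there.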

How the data were processed

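The authors deposited a single table of log2 values of TPM per gene and library. Its scale, log2(TPM + 1), was read from the values. The submitters' processing notes name GRCm38.p6, Salmon 0.9.1, HTSeq 0.10.0, STAR 2.5.1b, SAMtools 1.6, Trimmomatic 0.36, bcl2fastq 2.20 and FastQC 0.11.5, with no roles. Of 18676 rows, the 16397 whose mouse identifier stands once were used, which leaves out close paralogs such as Krt6a. No columns of other samples were present. R 4.3.3 and limma 3.58.1 fitted 4 stages and the run to 13 stroma libraries, for genes with TPM of at least 1 in at least 3, with moderation that follows the mean level and Benjamini-Hochberg adjustment over all genes. Residual and prior degrees of freedom were 8 and 71.8, so SEs are pooled over genes. Differences on this scale understate changes of low genes. The script was tested on simulated data. No pair of libraries was identical.

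The members, the 36 gene lists (618 entries) and the naming rule were chosen with earlier results of these data known. Named were genes past the threshold outside the gland class, or the 6 with the smallest p in a direction with fewer; the 8 gland members with the smallest p; the 6 genes with the highest correlation to the gland score; up to 4 members per other list; 8 immunostained markers; and 6 genes per direction between compartments. Some were then described by count only, and collagens and other list members quoted beside them were chosen after their values were seen. Coordinates are from GENCODE M21. Some named genes are not reported here.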

Additional observations from a re-analysis of the deposited data

Results flagged for a closer look

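Among the 4 dysplasia stroma libraries, a single library stood far from the other 3 for 10 named genes and 2 list means, 12 of the 107 genes and list means checked. Chance alone flags about 1 in 20 groups, but that rate does not hold for the 7 genes in which the other 3 libraries were all at 0, since any level above 0 is then set apart. Dysplasia stroma 4 was above 0 where the other 3 were listed at 0 for 2310057J18Rik (0.699), Agr2 (0.845), Aqp5 (1.78), Defb14 (1.53), Gp2 (0.628), Lipf (0.689) and Lman1l (1.04), on the log2 scale. This library had 52 genes at 0, against 1614 to 4637 in the other 3. Dysplasia stroma 2 was high for Pcolce2 (5.51, with the others at 2.60 to 3.10) and low for Postn (4.50, with the others at 6.36 to 6.71), for S100a9 (0.804, with the others at 3.02 to 3.43) and for the mean of the interferon response list (2.22, with the others at 3.13 to 3.26). Dysplasia stroma 3 was high for the mean of the ribosomal protein list (9.10, with the others at 6.61 to 6.89). No gene differed in its tumor change between stroma and epithelium past the threshold.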

How the results depend on the processing

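Counts are given for all genes (21), for the salivary lists (9) and for genes apart from the gland (7). They were 0, 0 and 0 with a pseudocount of 0.1, median centring, rescaling without the 3 dominant genes, no trend with the mean level, the gland score as a covariate, run 2 only, and, chosen after seeing the data, each gene's own spread or tumor stroma 3 as the only tumor library. They were 9, 1 and 5 with a filter at 3 TPM in 4 or more libraries, 3, 0 and 2 with quantile normalization, 1, 0 and 1 with the muscle score as a covariate, and 10, 5 and 4 in run 1 only. They were 6, 1 and 3 without hyperplasia stroma 1, and again 6, 1 and 3 when dysplasia stroma 2 was left out as well, chosen after seeing the data. Library weights gave 189 (170 higher and 19 lower), 13 and 159. No filter gave 18, 8 and 4, no run term 14, 7 and 3, age as a covariate 18, 9 and 4, and robust moderation 20, 4 and 10. With a correlation of at least 0.6 as the rule for following the gland score, 0 of the called genes stood apart from it. Leaving out 1 library gave 1 to 26, 1 to 9 and 0 to 14, with the lowest counts without tumor stroma 2. Without dysplasia stroma 1 the third count was 14 and without dysplasia stroma 3 it was 3, and the second was 3 without tumor stroma 1 and 5 without dysplasia stroma 3. The cause of these changes was not tested.

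The replicate number as a block gave 0, 0 and 0 calls (267 genes at an unadjusted p under 0.05). That fit left out dysplasia stroma 4 and all normal and hyperplasia stroma, which left few residual degrees of freedom. Its counts therefore do not show the effect of the block alone. The numbers did not pair the libraries, since same-numbered tumor and dysplasia libraries had correlations of deviations of 0.10, -0.00 and -0.14. The test between compartments gave 0 under each alternative run.

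Of the named genes, 11 changed sign in some alternative. With tumor stroma 3 alone, Arg1 had -0.087, Bpifa2 -0.051, Bpifb1 -0.49, Bpifb2 -0.12, Cnfn -0.14 and Ltf -0.19. With the gland score as a covariate, Arg1 had -0.70, B4galnt2 -0.62, Bpifa2 -0.041, Bpifb2 -0.60, Cd8a -0.57, Lman1l -0.11 and Ltf -0.60, and Cd8a had -0.11 with the muscle score. Bpifa2 and Bpifb2 are part of the gland score. In run 2 Adgre1 had 0.082 and Ptprc 0.87. Ptprc had 1.24 with the replicate block, and from -0.82 to 0.33 in the fits that left out 1 library, positive without tumor stroma 1 (0.33), dysplasia stroma 1 (0.18) or dysplasia stroma 4 (0.04). Depth limits are unknown, since TPM keeps no read number.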
